A study of Homo sapiens with 18 samples.

Results

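A375 cells with a knockout of TADA2B were set against A375 cells with a control guide, all of them overexpressing SOX10. A375, a long-used line of human melanoma cells, was bought from ATCC and cultured in DMEM with serum, per the labels. The comparison used 9 of the 18 libraries of the study, chosen by their titles. They were 3 TADA2B knockout libraries made with guide 1, 3 made with guide 2, and 3 control libraries with a guide against GFP, a sequence foreign to human cells. All 9 carried the SOX10 overexpression, and the 2 guides were given equal weight. The other 9 libraries hold the same guides without the overexpression, and they serve here only to set the knockout effect with SOX10 beside the effect without it. The SOX10 construct and its promoter, the way the knockout was made and selected, and whether each line was a clone or a pool are not stated in the labels. Nor do the labels say whether the 3 libraries of a group came from separate cultures. Each p-value is thus relative to the scatter among libraries, and that scatter may be technical. The comparison addresses what loss of TADA2B changed in cells that carry the SOX10 overexpression.

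TADA2B encodes the adaptor that ties the acetyltransferase KAT2A or KAT2B into SAGA, a large coactivator complex that acetylates histone H3 and removes ubiquitin from histone H2B at active genes. Its paralogue TADA2A takes the same place in a sister complex, ATAC. SOX10 is an HMG-box transcription factor of the neural crest. It is kept in melanocytes and Schwann cells, where it activates genes such as MITF, DCT and ERBB3. Melanoma cells that lose SOX10 are known for taking on an undifferentiated, invasive state with raised receptor tyrosine kinases.

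The TADA2B transcript was present in every library and only slightly lower in the knockout. TADA2B (ENSG00000173011; hg38 chromosome 4, 7041899 to 7057952) stood at 23.9, 26.8 and 25.3 CPM in the guide 1 libraries and 27.5, 25.7 and 27.6 CPM in the guide 2 libraries, against 30.7, 30.7 and 31.7 CPM in the control libraries, where CPM stands for counts scaled to a common library size. All 6 knockout libraries lay below the 3 control libraries (log2 fold change −0.25, SE 0.04, edgeR adjusted p = 1.26e-06). Here and throughout, the fold change is knockout over control averaged over the guides, SE is its standard error, and the edgeR adjusted p is the Benjamini-Hochberg adjusted p of edgeR's quasi-likelihood test over all 21060 genes tested. With library totals in place of TMM scaling the TADA2B change was −0.10. Cas9 guides commonly work by shifting the reading frame, so transcript counts do not measure how much protein was lost.

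SOX10 itself remained lower in the knockout although every line carried the overexpression. SOX10 (ENSG00000100146; hg38 chromosome 22, 37970686 to 37987422) was at 281, 286 and 307 CPM in the guide 1 libraries and 248, 251 and 240.5 CPM in the guide 2 libraries, against 451, 453 and 454 CPM in the control libraries. The groups did not overlap, and guide 2 lay below guide 1 (log2 fold change −0.76, SE 0.031, edgeR adjusted p = 4.68e-20). Without the overexpression the same contrast was −2.55, and the difference between both contrasts was 1.80 (edgeR adjusted p = 7.34e-25). Without it SOX10 averaged 83.6 and 43.4 CPM with guides 1 and 2, against 354 CPM in control cells. Knockout cells with the overexpression thus lay below control cells without it. Reads of the added copy and of the cells' own gene cannot be told apart in these counts. The SOX10 level therefore moved with every result that follows, and its part in them was not tested.

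The 9 libraries held 58573910 to 79435020 counts each. Mitochondrially encoded transcripts took 0.986% to 1.27% of the counts with guide 1 and 1.11% to 1.46% with guide 2, against 0.803% to 1.03% in control cells. The 10 most abundant genes took 3.61% to 3.80% in knockout cells and 4.22% to 4.26% in control cells. Principal component 1 of these libraries held 65.1% of the variance and set the knockout apart from control, with guide 2 farther out than guide 1. The part of these differences in depth and composition in the results was not tested. Of the markers that define melanoma and melanocytes, SOX10, MITF, S100B and PAX3 were well expressed in all 9 libraries. PMEL and MLANA were near 1 CPM, and the tyrosinase gene TYR had 11 reads in the 9 libraries together.

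Knockout of TADA2B moved a large share of the genes tested, mostly by small steps. Of 21060 genes, 11579 passed an edgeR adjusted p of 0.05 (55.0%), 5946 of them higher (28.2%) and 5633 lower (26.7%). Of these, 1905 genes rose and 649 fell by 2-fold or more, which is 12.1% of the genes tested. In 9874 genes (46.9%) all 6 knockout libraries lay on the same side of all 3 control libraries. The median change of all genes was 0.02 on the log2 scale. Scaling by library totals, without TMM factors, moved that median to 0.16 and made 74.5% of the called genes higher, against 51.4% with TMM. Under both scalings 9072 genes kept their call and sign, while 161 were called in opposite directions. Small changes therefore depend on the scaling, and for many gene groups the counts with library totals are given as well. Those counts are to be read against 9144 genes higher and 3126 lower of 21060 with library totals, not against the TMM shares.

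The largest rises were in genes that control cells barely expressed. DMBT1, a scavenger receptor glycoprotein of mucosal surfaces, was at 7.53, 6.55 and 7.51 CPM in the guide 1 libraries and 8.42, 8.12 and 7.99 CPM in the guide 2 libraries, against 0.0819, 0.0806 and 0.0588 CPM in the control libraries. No knockout library came near the control range, and the change was the largest of all the genes named (log2 fold change 6.66, SE 0.17, edgeR adjusted p = 1.2e-30). The 3 control libraries held only 16 reads of DMBT1 together, so the size of the fold is much less certain than its direction. DCLK1, a kinase that binds microtubules, was at 15.4, 16.3 and 16.2 CPM in the guide 1 libraries and 27.6, 27.4 and 28.3 CPM in the guide 2 libraries, against 0.368, 0.430 and 0.338 CPM in the control libraries. It stood 55.2-fold higher (log2 fold change 5.79, SE 0.089, edgeR adjusted p = 3.2e-38), and guide 2 lay above guide 1 in every library. UNC13D, needed for the release of cytotoxic granules, was 55.5-fold higher, at 7.87 and 11.1 CPM with guides 1 and 2, against 0.165 CPM in control cells. VSTM1, an inhibitory receptor of leukocytes, was 40.6-fold higher, and the placental alkaline phosphatase gene ALPP 32.3-fold. The platelet receptor gene PEAR1 rose 21.2-fold and the epidermal gene DMKN 20.8-fold. The edgeR adjusted p of these 5 genes was 6.43e-23 or less. Their control totals were 36 to 145 reads over 3 libraries, so these folds too are less certain than the direction.

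ANKRD1 was the most abundant of the 10 genes that rose most, and RAET1L was among them. ANKRD1 (ENSG00000148677; hg38 chromosome 10, 90912096 to 90921276), a nuclear ankyrin-repeat protein and a standard target of YAP and TEAD, was at 392, 416 and 441 CPM in the guide 1 libraries and 741, 792 and 780.4 CPM in the guide 2 libraries, against 22.2, 22.4 and 25.0 CPM in the control libraries. The groups were far apart, with guide 2 highest (log2 fold change 4.61, SE 0.06, edgeR adjusted p = 1.26e-20). RAET1L (ENSG00000155918; hg38 chromosome 6, 150018334 to 150025532), a stress ligand seen by the receptor NKG2D of natural killer cells, was at 15.4, 15.2 and 16.7 CPM in the guide 1 libraries and 24.4, 24.6 and 25.1 CPM in the guide 2 libraries, against 0.791, 0.685 and 0.824 CPM in the control libraries. It too separated completely by group (log2 fold change 4.69, SE 0.1, edgeR adjusted p = 3.75e-33). The promoters of both genes are shown because ANKRD1 is a YAP and TEAD target and both rose more with SOX10 than without it, by 1.16 for ANKRD1 and 2.61 for RAET1L on the log2 scale (edgeR adjusted p = 3.01e-09 and 3.65e-14). They are RefSeq sequences of build GRCh38.p14, from 250 bases before the transcription start to 50 after it, on the minus strand at chr10:90921038-90921337 for ANKRD1 and chr6:150025483-150025782 for RAET1L. Capitals mark 2 searched motifs on either strand, the TEAD motif GGAATG or its complement CATTCC, and the AP-1 motif TGANTCA.
ANKRD1: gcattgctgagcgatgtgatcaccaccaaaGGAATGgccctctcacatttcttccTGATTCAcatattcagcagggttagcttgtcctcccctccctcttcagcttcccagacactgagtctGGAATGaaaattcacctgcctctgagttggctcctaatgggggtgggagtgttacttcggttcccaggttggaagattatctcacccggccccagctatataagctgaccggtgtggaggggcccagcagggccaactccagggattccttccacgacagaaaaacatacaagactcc
RAET1L: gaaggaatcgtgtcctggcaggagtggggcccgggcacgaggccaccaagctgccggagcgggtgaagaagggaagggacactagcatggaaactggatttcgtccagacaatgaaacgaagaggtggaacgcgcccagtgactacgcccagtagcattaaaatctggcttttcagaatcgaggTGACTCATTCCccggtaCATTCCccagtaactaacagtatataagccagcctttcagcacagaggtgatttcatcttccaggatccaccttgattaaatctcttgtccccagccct
The ANKRD1 promoter held GGAATG at bases −220 and −128 from the start and TGATTCA at −195. The RAET1L promoter held CATTCC at −61 and −49, and TGACTCA at −66 shares its last bases with the first CATTCC. Of 12964 RefSeq promoters of this length, 11.4% held the TEAD motif and 5.43% the AP-1 motif. DMBT1 also rose more with SOX10, by 2.92 (edgeR adjusted p = 5.26e-11), and its promoter held neither motif. Of the other searched genes that rose most, DCLK1 held both motifs and DMKN the TEAD motif, while ALPP and PEAR1 held neither. Among searched genes that fell most, DCT and SOD3 held the TEAD motif, and PCSK2, TFAP2B, SLC24A2, PCDH7 and FAM20C held neither. A match describes the letters and is not evidence of binding. Of the 30 genes with the largest changes or differences, the promoters of 22 were searched. The promoters of the remaining genes, SCARA5 and SLC18A1 among them, were left out of the search. Their absence does not show that they lack a RefSeq promoter.

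**Figure D1:**
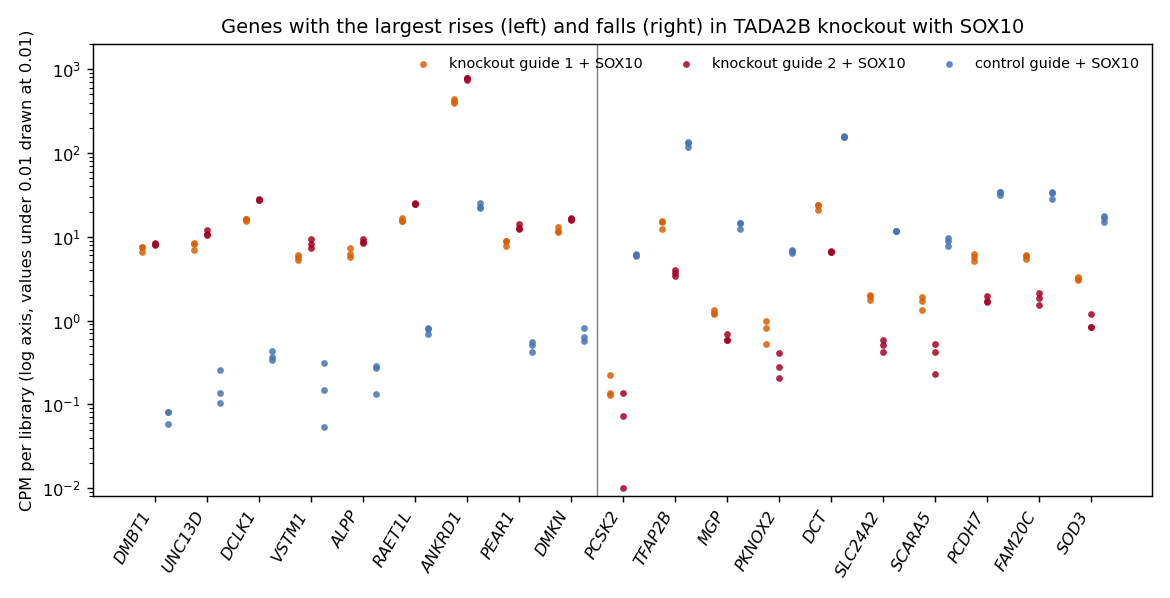
CPM in each of the 9 libraries with SOX10 (log axis) for 9 of the genes with the largest rises and the 10 with the largest falls, with knockout guide 1, knockout guide 2 and the control guide as colours; values under 0.01 are drawn at 0.01. In every gene the 6 knockout libraries lie on one side of the 3 control libraries, and guide 2 lies farther from control than guide 1 in most genes.

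The largest falls took in neural crest, pigment and secreted proteins. PCSK2, a convertase of prohormones in secretory granules, was at 0.129, 0.221 and 0.135 CPM in the guide 1 libraries and 0.0731, 0.137 and 0 CPM in the guide 2 libraries, against 5.93, 6.15 and 6.13 CPM in the control libraries. The knockout values were at the edge of detection, with 37 reads for guide 1 and 16 for guide 2 over 3 libraries each, against 1310 in control cells (log2 fold change −5.77, SE 0.23, edgeR adjusted p = 4.99e-23). A count of 0 in that guide 2 library allows up to 0.0493 CPM, the value of 3 counts, by counting error alone. TFAP2B (ENSG00000008196; hg38 chromosome 6, 50818723 to 50847613), an AP-2 transcription factor of the neural crest, was at 15.3, 14.9 and 12.4 CPM in the guide 1 libraries and 4.05, 3.43 and 3.68 CPM in the guide 2 libraries, against 133, 131 and 118 CPM in the control libraries. It was 17.5-fold lower (log2 fold change −4.13, SE 0.066, edgeR adjusted p = 2.64e-21), and the fall reached 34.2-fold with guide 2 and 8.97-fold with guide 1. MGP, an inhibitor of calcification in the matrix, was 15.6-fold lower, at 1.26 and 0.625 CPM with guides 1 and 2, against 13.9 CPM in control cells. The homeobox gene PKNOX2 was 14.0-fold lower and the exchanger gene SLC24A2 12.0-fold. SCARA5, a scavenger receptor gene, was 11.0-fold lower, and the protocadherin gene PCDH7 10.5-fold. FAM20C, the Golgi kinase of secreted proteins, was 9.67-fold lower, and SOD3, an extracellular superoxide dismutase, 9.41-fold. These 7 genes had an edgeR adjusted p of 9.28e-25 or less, and in each of them every guide 2 library lay below every guide 1 library.

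Genes of the Schwann and neural crest lineage fell as a group, although all lines carried the SOX10 overexpression. Of 28 members tested, SOX10 itself included, 20 fell and 5 rose, with a median change of −0.69, against 26.7% lower, 28.2% higher and a median of 0.02 over all genes. In bulk RNA, fewer cells of a type and less RNA per cell cannot be told apart. Among the transcription factors, FOXD3, an early factor of the neural crest, was at 3.46 ± 0.0380 CPM on average with guide 1 and 2.07 ± 0.342 CPM with guide 2, against 16.0 ± 0.863 CPM in control cells (SD, n = 3 each; log2 fold change −2.57). SOX5 was at 90.0, 85.2 and 78.5 CPM in the guide 1 libraries and 51.6, 43.0 and 46.9 CPM in the guide 2 libraries, against 266, 263 and 248 CPM in the control libraries, with no overlap between the groups (log2 fold change −2.03, SE 0.058, edgeR adjusted p = 2.95e-13). POU3F2, a factor known from neurons and invasive melanoma, had a change of −1.47, SNAI2 of −1.91 and TFAP2A of −0.60. PAX3 was at 12.3 and 12.5 CPM with guides 1 and 2, against 14.6 CPM in control cells (−0.23), a call that ended with library totals (−0.09, edgeR adjusted p = 0.13). SOX8 was barely expressed, with 9 and 17 reads over the 3 libraries of guides 1 and 2, against 55 in control cells, and SOX6 did not pass, at 29.5 and 30.5 CPM with guides 1 and 2, against 30.3 CPM in control cells.

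Receptors and adhesion molecules of the lineage split. ERBB3, the neuregulin receptor of Schwann cells, was at 159.8, 160.3 and 153 CPM in the guide 1 libraries and 112, 107 and 104 CPM in the guide 2 libraries, against 436, 409.7 and 397 CPM in the control libraries, so every knockout library was under the control range (log2 fold change −1.67, SE 0.027, edgeR adjusted p = 1.48e-36). RXRG, a retinoid X receptor that marks neural crest-like melanoma cells, was at 19.8, 20.1 and 19.5 CPM in the guide 1 libraries and 12.7, 12.2 and 13.1 CPM in the guide 2 libraries, against 74.4, 74.3 and 74.2 CPM in the control libraries (log2 fold change −2.23, SE 0.046, edgeR adjusted p = 5.3e-34). PTPRZ1, a receptor phosphatase of glia, was 8.48-fold lower and the endothelin receptor gene EDNRB 1.55-fold. CDH19, a cadherin of Schwann cell precursors, behaved otherwise, at 124, 121 and 119.8 CPM in the guide 1 libraries and 120.1, 114 and 120.1 CPM in the guide 2 libraries, against 123, 122 and 131 CPM in the control libraries. Its groups overlapped (log2 fold change −0.06, edgeR adjusted p = 0.085), and library totals gave 0.08 (edgeR adjusted p = 0.0177). NGFR, the low-affinity neurotrophin receptor, was higher, at 28.4 ± 2.35 CPM on average with guide 1 and 30.2 ± 1.02 CPM with guide 2, against 20.7 ± 1.18 CPM in control cells (SD, n = 3 each; log2 fold change 0.50, SE 0.052, edgeR adjusted p = 4.78e-11). NCAM1 was higher by 0.56 and L1CAM by 1.01 on the log2 scale, while ITGA4 had −0.48.

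The myelin genes also went both ways. PMP22, a membrane protein of compact myelin, was at 226 ± 5.10 CPM on average with guide 1 and 157 ± 1.55 CPM with guide 2, against 495 ± 42.0 CPM in control cells (SD, n = 3 each; log2 fold change −1.39, SE 0.031, edgeR adjusted p = 6.64e-27). The calcium-binding glial marker S100B had a change of −0.73. PMP2, a lipid-binding protein of peripheral myelin, was instead higher, at 59.8, 60.9 and 64.5 CPM in the guide 1 libraries and 78.6, 81.1 and 91.9 CPM in the guide 2 libraries, against 38.8, 37.8 and 44.6 CPM in the control libraries (log2 fold change 0.83, SE 0.055, edgeR adjusted p = 1.62e-13). MOBP, a protein of oligodendrocyte myelin, was likewise higher, at 12.0 and 15.4 CPM with guides 1 and 2, against 6.36 CPM in control cells (log2 fold change 1.10, edgeR adjusted p = 3.02e-14). PMP2 and MOBP were close to absent without SOX10 overexpression, at 0.0125 and 0.0387 CPM with the 2 knockout guides and 0.0903 CPM in control cells for PMP2. GAP43, a growth cone protein that is also in this list, had −0.33.

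**Figure D2:**
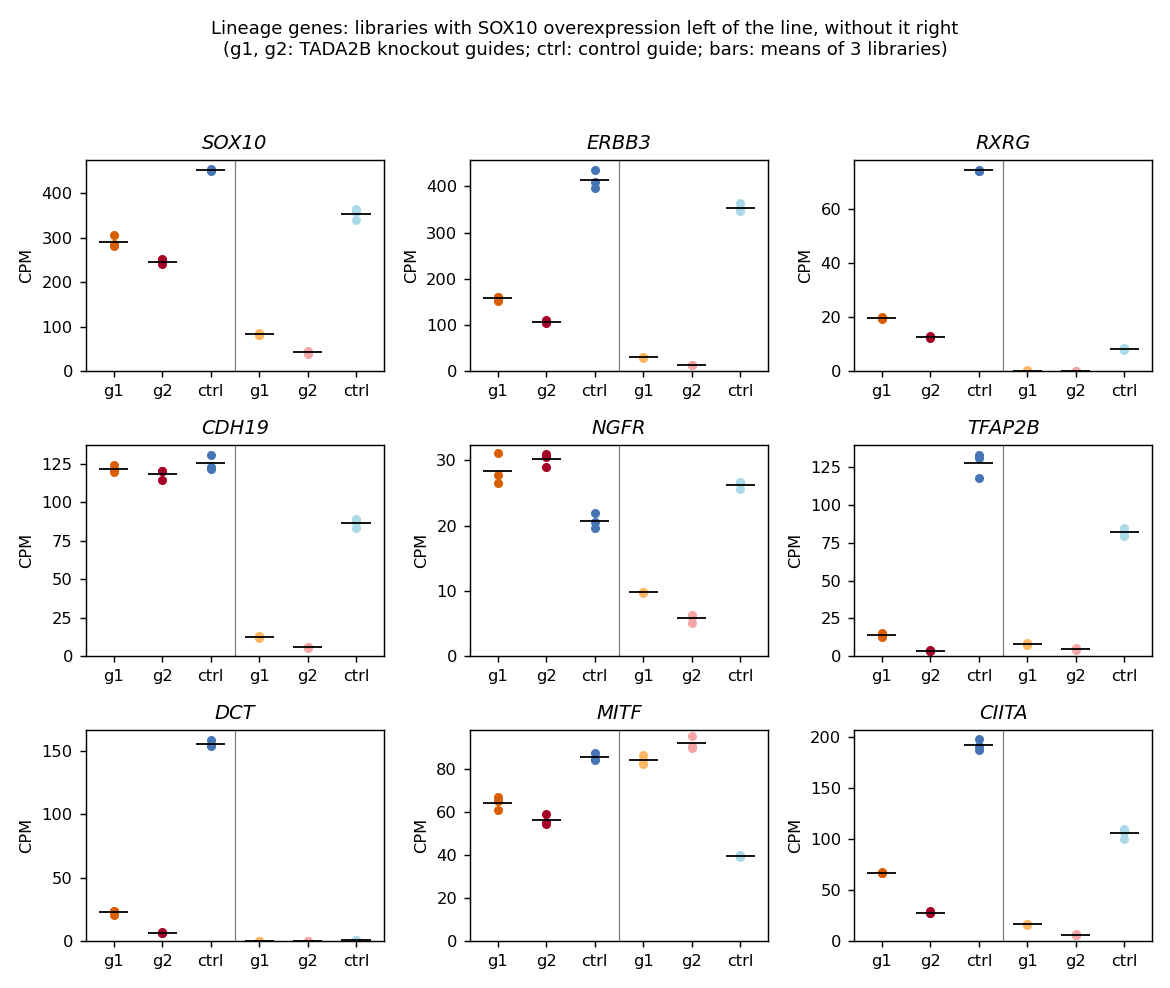
CPM of 9 lineage and antigen presentation genes in all 18 libraries, with guide 1 (g1), guide 2 (g2) and control (ctrl), cells with SOX10 left of the line and without it right; points are libraries and bars are means of 3. With SOX10, ERBB3, RXRG, TFAP2B, DCT and CIITA are low with both guides, CDH19 overlaps between the groups and NGFR is above control.

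Pigment genes showed no common direction. Of 14 melanin and melanosome genes tested, 7 rose and 4 fell, with a median of 0.07, against 28.2% and 26.7% of all genes. DCT (ENSG00000080166; hg38 chromosome 13, 94436808 to 94479682), the dopachrome tautomerase of melanin synthesis, was at 23.8, 23.7 and 20.8 CPM in the guide 1 libraries and 6.77, 6.51 and 6.49 CPM in the guide 2 libraries, against 159, 154 and 154 CPM in the control libraries. The fall was 12.7-fold over both guides (log2 fold change −3.67, SE 0.041, edgeR adjusted p = 3.99e-43), 6.83-fold with guide 1 and 23.6-fold with guide 2. MITF, the central regulator of melanocytes, was at 66.9, 64.9 and 60.7 CPM in the guide 1 libraries and 59.0, 54.5 and 55.5 CPM in the guide 2 libraries, against 87.5, 84.6 and 84.3 CPM in the control libraries, below control in all 6 libraries (log2 fold change −0.51, SE 0.031, edgeR adjusted p = 9.73e-18). Without SOX10 MITF was higher in the knockout, with a change of 1.15, and the difference was −1.66 (edgeR adjusted p = 1.35e-28). GPNMB, a melanosomal glycoprotein, had a change of −0.84 and RAB38, which sorts melanosome enzymes, of −0.32. RAB27A, which moves melanosomes, rose by 0.78 on the log2 scale. PMEL, the fibril protein of melanosomes, rose by 1.71 and TYRP1 by 1.91, both near or under 1 CPM in every group. MLANA, OCA2 and MC1R did not pass.

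Across all genes the knockout effect with SOX10 was often in the same direction as without it. Without SOX10 the knockout changed 12230 genes (58.1%), 6025 higher (28.6%) and 6205 lower (29.5%), with a median of −0.01. The libraries of both comparisons are separate. Of the genes called with SOX10, 69.0% were called in the same direction without it, 3988 higher and 4007 lower. These made up 65.4% of the genes called without SOX10. A further 796 genes were called in opposite directions, 470 of them higher with SOX10 and lower without it. The test of the difference called 7005 genes (33.3%), in 3818 (18.1%) a more positive and in 3187 (15.1%) a more negative effect with SOX10. Among the 7995 genes called the same way in both, the difference passed in 3125, with a smaller effect with SOX10 in 1942 and a larger one in 1183. Of 3149 genes changed at least 2-fold without SOX10, 1618 (51.4%) were also called at least 2-fold in the same direction with it. For those 3149 genes, chosen by their change without SOX10, the median ratio of the log2 change with SOX10 to that without it was 0.616. Log2 changes had a Pearson correlation of 0.703 across the 21060 genes, which are not independent replicates.

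**Figure D3:**
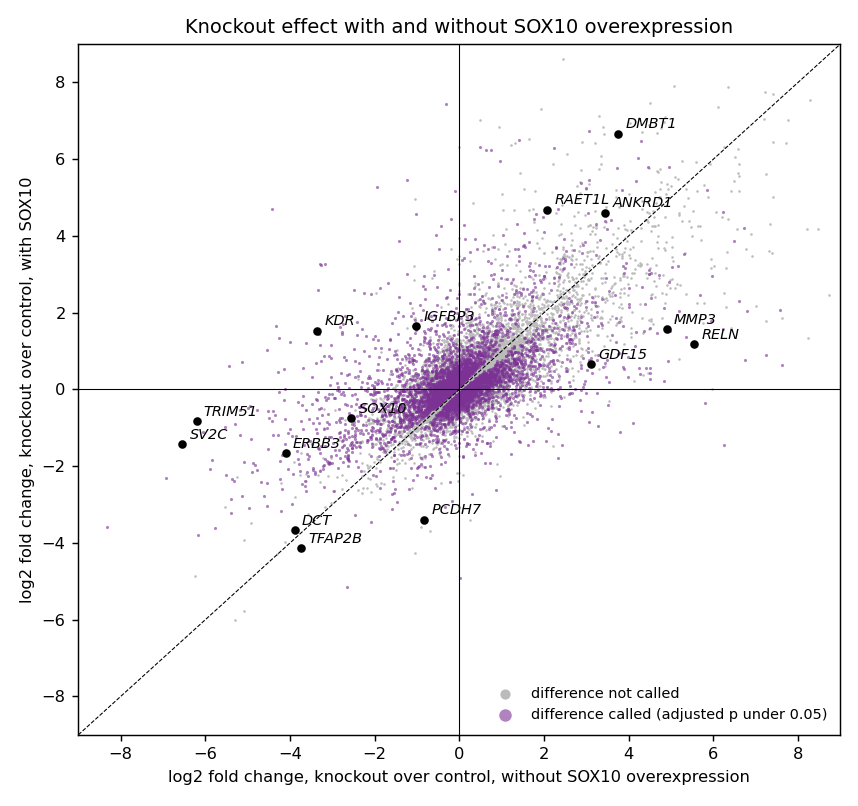
Log2 fold change of knockout over control for each of 21060 genes, with SOX10 overexpression (vertical) against without it (horizontal); purple points are the 7005 genes whose difference passed an edgeR adjusted p of 0.05, and the dashed line marks equal effects. KDR and IGFBP3 lie above 0 on the vertical and below 0 on the horizontal axis, while ANKRD1, RAET1L and DMBT1 rose in both settings and lie above the line.

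Lineage genes fell less with SOX10 than without it. Without SOX10, 22 of the 28 lineage members had fallen and 2 had risen, against 29.5% and 28.6% of all genes. Their median was −1.89, against −0.69 with SOX10. In 18 members, among them SOX10 with its added copy, the effect was more positive with SOX10 and in 5 more negative, against 18.1% and 15.1% of all genes. ERBB3 differed by 2.44, RXRG by 3.27 and CDH19 by 3.29 on the log2 scale. CDH19 was at 12.7 and 5.65 CPM in knockout cells without SOX10, against 86.4 CPM in control cells without it. SNAI2, the neural crest and mesenchyme factor Slug, went the other way, with −1.91 with SOX10 and 0.60 without (difference −2.51, edgeR adjusted p = 1.39e-12). The lineage gene TFAP2B fell in both settings, by 17.5-fold with SOX10 and 13.4-fold without. MGP and DCT did so too, and for these the difference did not pass (edgeR adjusted p = 0.546 and 0.525). Without SOX10, DCT was only at 1.01 CPM in control cells, with 13 and 18 reads in the knockout groups. Its difference is therefore imprecise (SE 0.23).

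KDR, the main receptor of the angiogenic factor VEGF, turned round in direction. With SOX10, KDR (ENSG00000128052; hg38 chromosome 4, 55078259 to 55125595) was at 27.6, 26.7 and 28.96 CPM in the guide 1 libraries and 33.2, 33.2 and 33.1 CPM in the guide 2 libraries, against 10.5, 10.2 and 10.8 CPM in the control libraries. Every knockout library was higher than every control library (log2 fold change 1.53, SE 0.062, edgeR adjusted p = 7.67e-24). Without SOX10 it averaged 0.395 and 0.254 CPM in knockout cells, against 3.26 CPM in control cells. The difference of the effects was 4.90 (SE 0.13, edgeR adjusted p = 1e-28). SLC18A1, a vesicular transporter of monoamines, and MUC7, a salivary mucin, were also higher in the knockout with SOX10. SLC18A1 was at 20.4, 20.8 and 22.4 CPM in the guide 1 libraries and 21.1, 21.8 and 19.9 CPM in the guide 2 libraries, against 14.3, 13.2 and 13.8 CPM in the control libraries, and MUC7 at 9.17 and 11.5 CPM with guides 1 and 2, against 5.04 CPM in control cells. Without SOX10 both were close to 0 everywhere, with 5 and 0 reads of SLC18A1 in the 2 knockout groups, against 55 in control cells. MUC7 had 1 and 1 reads in the knockout groups, against 28 in control cells. Fitted differences of such genes depend on the small count added to zeros and bound nothing. The KDR promoter, at chr4:55125546-55125845 on the minus strand in GRCh38.p14, is shown because its gene reversed direction with SOX10. The capitals mark the only match in it of the 3 motifs searched, the SOX motif ACAAAG at −231, which 11.6% of 12964 RefSeq promoters held on either strand.
KDR: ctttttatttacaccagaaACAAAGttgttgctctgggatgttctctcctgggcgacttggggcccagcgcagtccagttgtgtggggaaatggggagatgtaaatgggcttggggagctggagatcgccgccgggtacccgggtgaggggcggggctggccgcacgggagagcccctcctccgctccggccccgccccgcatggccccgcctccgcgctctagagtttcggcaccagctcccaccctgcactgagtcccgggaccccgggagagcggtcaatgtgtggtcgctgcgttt

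Other genes fell in both settings but much less with SOX10, or rose less. With SOX10 SV2C, a glycoprotein of synaptic vesicles, was at 3.24 and 2.16 CPM with guides 1 and 2, against 7.07 CPM in control cells (log2 fold change −1.42). Without SOX10 it averaged 0.0181 and 0.00492 CPM in knockout cells and 1.01 CPM in control cells. TRIM51, whose near-identical relatives make its reads uncertain, had a change of −0.83 with SOX10. Without SOX10 it had 29 and 2 reads in the knockout groups, against 540 in control cells. SLC24A2 had 16 and 0 reads there, against 718. In the other direction, the matrix protease gene MMP3 was with SOX10 at 1.36 and 1.79 CPM with guides 1 and 2, against 0.527 CPM in control cells. Without SOX10 it reached 24.7 and 29.1 CPM in knockout cells, against 0.898 CPM in control cells (difference −3.33, edgeR adjusted p = 6.74e-18). RELN, a secreted guide of neuronal migration, rose by 1.18 with SOX10 and 5.54 without. The stress cytokine gene GDF15 rose by 0.65 with SOX10 and 3.10 without. PCDH7 was the reverse case, a fall of 10.5-fold with SOX10 and 1.77-fold without (difference −2.57). SLC5A4, a sodium and sugar cotransporter family gene, was with SOX10 at 4.44 and 3.50 CPM with guides 1 and 2, against 10.2 CPM in control cells. Without SOX10 every group was under 0.1 CPM. The difference for SHOC1, a meiotic gene with 5 reads in control cells with SOX10, was −2.62. It lost its call when any 1 of 12 libraries was left out, and without control replicate 1 with SOX10 it was −1.10 (edgeR adjusted p = 0.782).

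The guides differed in degree. Each was compared with the same 3 control libraries, so their lists are given side by side and not overlapped. Guide 1 changed 9846 genes (46.8%), 5064 higher and 4782 lower, and guide 2 changed 11536 (54.8%), 5963 higher and 5573 lower. With library totals, 75.6% of the genes called with guide 1 and 74.1% of those with guide 2 were higher, against 51.4% and 51.7% with TMM. Set directly against each other, guide 2 and guide 1 differed in 2539 genes (12.1%), 1063 higher with guide 2 and 1476 lower. Library totals turned that balance, with 57.8% higher against 41.9%. Among genes of at least 5 CPM with guide 1, the largest falls with guide 2 were in genes already low in the knockout. TRIM48, whose near-identical relatives make its read assignment uncertain, was at 30.4, 28.0 and 25.5 CPM in the guide 1 libraries and 6.74, 7.59 and 6.67 CPM in the guide 2 libraries, against 70.0, 71.3 and 67.7 CPM in the control libraries (guide 2 over guide 1 −2.00, edgeR adjusted p = 5.72e-16). The same log2 difference was −1.93 for TFAP2B, −1.79 for DCT and −1.70 for HLA-DOA. Among less abundant genes it was −2.08 for SCARA5 and −1.92 for SLC24A2. Among genes that had risen and were at 5 CPM or more with guide 2, HECW2, a ubiquitin ligase, was at 5.98, 7.23 and 6.12 CPM in the guide 1 libraries and 12.0, 12.8 and 14.3 CPM in the guide 2 libraries, against 0.450, 0.550 and 0.382 CPM in the control libraries. It was higher with guide 2 by 1.01, the annexin gene ANXA3 by 0.97, ANKRD1 by 0.89 and SERPINB2, an inhibitor of plasminogen activators, by 0.88. TADA2B did not differ between the guides past the threshold, with a difference of 0.09 (SE 0.047, edgeR adjusted p = 0.266). SOX10 did, with −0.24 (edgeR adjusted p = 1.11e-05).

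**Figure D4:**
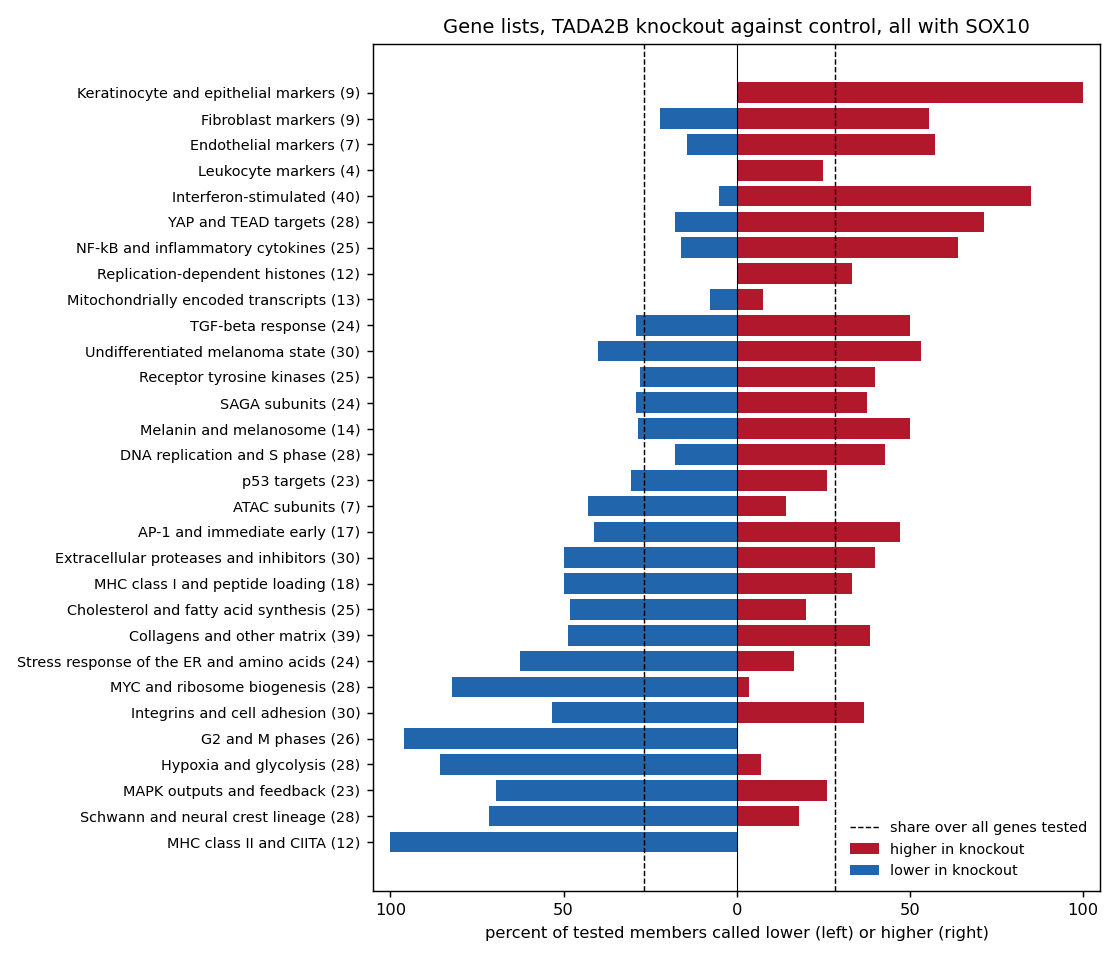
Percent of the tested members of each gene list called lower (left) or higher (right) in knockout over control, all with SOX10, with the number tested in brackets; dashed lines mark 26.7% lower and 28.2% higher over all genes. MHC class II, lineage, MAPK and G2 and M phase genes were mostly lower, and interferon-stimulated genes, YAP and TEAD targets and epithelial markers mostly higher. With library totals the ATAC, p53, stress and S phase lists had more members higher and fewer lower.

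Receptor tyrosine kinases moved both ways with SOX10. Of 25 tested, 10 rose and 7 fell, with a median of 0.10, against 28.2% and 26.7% of all genes. With library totals 13 rose and 5 fell. EGFR, the epidermal growth factor receptor, was at 30.6, 31.5 and 28.2 CPM in the guide 1 libraries and 34.4, 33.7 and 35.5 CPM in the guide 2 libraries, against 12.8, 13.5 and 11.9 CPM in the control libraries. It was 2.53-fold higher with no overlap (log2 fold change 1.34, SE 0.042, edgeR adjusted p = 1.36e-27), and the change without SOX10 was 1.34. MET, the receptor of hepatocyte growth factor, rose by 0.85 to 225 and 252 CPM with guides 1 and 2, against 132 CPM in control cells. IGF1R rose by 0.51 with SOX10 and had −0.37 without. In 16 of the 25 receptors the knockout effect was more positive with SOX10, and in 3 more negative, against 18.1% and 15.1% of all genes. Without SOX10, 8 had risen and 16 had fallen, against 28.6% and 29.5% of all genes.

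Outputs and feedback genes of MAPK signalling, the growth pathway that drives most melanomas, were mostly lower. Of 23 tested, 16 fell and 6 rose, with a median of −0.52, against 26.7% and 28.2% of all genes. With library totals 14 fell and 7 rose. TRIB2, a pseudokinase, was at 43.6, 41.0 and 42.0 CPM in the guide 1 libraries and 28.7, 28.5 and 27.2 CPM in the guide 2 libraries, against 146, 142 and 142 CPM in the control libraries, a 4.15-fold fall in which no libraries overlapped (log2 fold change −2.05, SE 0.035, edgeR adjusted p = 1.19e-35). SPRY2, a feedback inhibitor of receptor kinase signalling, was at 106, 108 and 107 CPM in the guide 1 libraries and 76.9, 75.7 and 76.5 CPM in the guide 2 libraries, against 205, 206 and 211 CPM in the control libraries (log2 fold change −1.20, SE 0.025, edgeR adjusted p = 9.08e-34). The phosphatase gene DUSP4 was 2.00-fold lower and the ETS factor gene ETV5 1.93-fold. PHLDA1 was 2.19-fold lower with SOX10, while without SOX10 its change was −0.10 (difference −1.03, edgeR adjusted p = 1.11e-19). Without SOX10 the counts were 15 lower and 5 higher, against 29.5% and 28.6% of all genes.

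AP-1 and other immediate early genes split, with 8 of 17 higher and 7 lower, against 28.2% and 26.7% of all genes. EGR1, an early zinc finger factor, was at 27.4 ± 1.12 CPM on average with guide 1 and 37.8 ± 0.598 CPM with guide 2, against 12.8 ± 0.989 CPM in control cells (SD, n = 3 each; log2 fold change 1.33). ATF3 and BATF3, both basic leucine zipper factors, were higher by 1.48 and 1.71. FOSL1, the AP-1 subunit of invasive melanoma, had a change of −0.83, and the orphan receptor gene NR4A2 of −1.39. All 5 had an edgeR adjusted p of 3.28e-15 or less and no overlap between knockout and control libraries. With library totals 8 were higher and 4 lower.

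Targets of YAP and TEAD, the effectors of Hippo signalling, were mostly higher. Of 28 tested, 20 rose and 5 fell, with a median of 0.44, against 28.2% and 26.7% of all genes. CCN1, a secreted matricellular protein, was at 461, 485 and 501 CPM in the guide 1 libraries and 711, 747 and 745 CPM in the guide 2 libraries, against 116, 116 and 126 CPM in the control libraries. Every knockout library was at least several times the control level, and the fold change was 4.99 (log2 fold change 2.32, SE 0.037, edgeR adjusted p = 1.17e-28). F3, the tissue factor that starts blood clotting, was at 39.4, 38.3 and 38.9 CPM in the guide 1 libraries and 41.2, 43.0 and 42.2 CPM in the guide 2 libraries, against 11.1, 11.2 and 11.8 CPM in the control libraries (log2 fold change 1.83, SE 0.043, edgeR adjusted p = 6.74e-32). CRIM1 rose 2.30-fold and was abundant, at 603 and 633 CPM with guides 1 and 2, against 269 CPM in control cells. IGFBP3, which binds insulin-like growth factors, was at 168, 176 and 176 CPM in the guide 1 libraries and 209, 205 and 215 CPM in the guide 2 libraries, against 62.2, 59.0 and 61.0 CPM in the control libraries. It rose 3.14-fold with SOX10, had −1.02 without, and differed by 2.67 (edgeR adjusted p = 1.98e-37). WWTR1, which encodes the YAP paralogue TAZ and is counted in this list, was lower, at 434, 428 and 396 CPM in the guide 1 libraries and 291, 274 and 279 CPM in the guide 2 libraries, against 878, 847 and 874 CPM in the control libraries (log2 fold change −1.34, SE 0.025, edgeR adjusted p = 6.39e-35). In 20 of the 28 the effect was more positive with SOX10, and in 2 more negative, against 18.1% and 15.1% of all genes. Without SOX10, 14 had risen and 9 had fallen, against 28.6% and 29.5% of all genes.

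Genes of the TGF-beta response and the undifferentiated melanoma state had members in both directions. In the TGF-beta list 12 of 24 rose and 7 fell, against 28.2% and 26.7% of all genes. TGFB2, a ligand of the pathway, was at 8.86 ± 0.331 CPM on average with guide 1 and 9.96 ± 0.684 CPM with guide 2, against 2.01 ± 0.462 CPM in control cells (SD, n = 3 each; log2 fold change 2.23), and PMEPA1, a feedback inhibitor, had −0.93. TGFBI rose by 0.41 with SOX10 and by 1.48 without. In the undifferentiated list 16 of 30 rose and 12 fell. The matricellular gene SPARC was at 1029, 1044 and 1061 CPM in the guide 1 libraries and 710.4, 709 and 694 CPM in the guide 2 libraries, against 1946, 1930.2 and 1971 CPM in the control libraries, lower in all 6 knockout libraries (log2 fold change −1.18, SE 0.021, edgeR adjusted p = 4.92e-36). VIM, the intermediate filament of mesenchymal cells, had a change of −0.93, the hyaluronan receptor gene CD44 of −0.73 and tenascin TNC of −1.30.

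MHC class II genes, which present peptides to helper T cells, fell without exception in the list. All 12 tested were lower with SOX10, with a median of −1.41, and the count was also 12 with library totals, with each guide alone and without SOX10. Over all genes, 26.7% were lower with the guides averaged, 22.7% with guide 1, 26.5% with guide 2 and 29.5% without SOX10. CIITA, the master activator of this locus, was at 66.3, 66.7 and 67.5 CPM in the guide 1 libraries and 27.1, 29.1 and 27.4 CPM in the guide 2 libraries, against 191, 187 and 198 CPM in the control libraries. The groups were well apart, and guide 2 was lower than guide 1 in every library (log2 fold change −2.15, SE 0.032, edgeR adjusted p = 8.02e-39). HLA-DRA, the alpha chain of the DR heterodimer, was at 353, 352 and 373 CPM in the guide 1 libraries and 175, 178 and 172 CPM in the guide 2 libraries, against 763, 787 and 789 CPM in the control libraries (log2 fold change −1.64, SE 0.025, edgeR adjusted p = 3.2e-38). CD74, the chaperone of class II molecules, was 2.57-fold lower, HLA-DPA1 2.69-fold and HLA-DMA 2.51-fold. All 12 were lower with guide 2 than with guide 1, against 7.01% of all genes. Without SOX10 the median fall was deeper, at −2.55. In 11 of the 12 genes the effect was more positive with SOX10, against 18.1% of all genes. Reads of HLA genes can be shared between near-identical relatives, which leaves the value of each gene less certain than the direction of the list.

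MHC class I and peptide loading genes split, with 6 of 18 higher and 9 lower, or 8 and 8 with library totals. Over all genes 28.2% were higher and 26.7% lower, or 9144 and 3126 of 21060 genes with library totals. HLA-E was at 87.6, 89.2 and 92.1 CPM in the guide 1 libraries and 56.7, 57.3 and 58.1 CPM in the guide 2 libraries, against 166, 169.6 and 168 CPM in the control libraries, a 2.34-fold fall (log2 fold change −1.22, SE 0.028, edgeR adjusted p = 1.05e-32). HLA-B was 2.01-fold lower and HLA-C 1.90-fold. The chaperone gene CALR had a change of −0.45. In 15 of the 18 the effect was more negative with SOX10, and in none more positive, against 15.1% and 18.1% of all genes.

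Interferon-stimulated genes were higher. Of 40 tested, 34 rose and 2 fell, with a median of 0.74, against 28.2% and 26.7% of all genes. With library totals 37 rose and 2 fell. ISG15, a ubiquitin-like modifier, was at 4.33, 3.32 and 3.45 CPM in the guide 1 libraries and 4.47, 4.77 and 3.62 CPM in the guide 2 libraries, against 1.06, 1.20 and 0.971 CPM in the control libraries. All knockout values were over 3 CPM and all control values near 1 CPM (log2 fold change 1.89, SE 0.12, edgeR adjusted p = 5.51e-17). GBP1, a guanylate-binding protein of antiviral defence, was at 22.1, 21.3 and 21.2 CPM in the guide 1 libraries and 26.3, 28.4 and 25.1 CPM in the guide 2 libraries, against 8.96, 9.21 and 8.99 CPM in the control libraries (log2 fold change 1.40, SE 0.054, edgeR adjusted p = 1.33e-24). HERC5, which attaches ISG15, rose by 1.38, IFI44 by 1.14 and SAMD9 by 1.01 on the log2 scale. For many the rise was smaller with SOX10. Without it 37 rose, against 28.6% of all genes, with a median of 1.24. In 21 genes the effect was more negative with SOX10 and in 2 more positive, against 15.1% and 18.1%. ISG15 differed by −1.29 (edgeR adjusted p = 4.89e-07), whereas for HERC5 and IFI44 the difference did not pass.

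NF-kB targets and inflammatory cytokines were mostly higher, with 16 of 25 up and 4 down and a median of 0.40, or 19 and 2 with library totals. Over all genes 28.2% were higher and 26.7% lower. IL11, a cytokine of the interleukin 6 family, was at 28.5, 32.3 and 31.7 CPM in the guide 1 libraries and 41.4, 40.1 and 41.5 CPM in the guide 2 libraries, against 8.66, 9.44 and 8.32 CPM in the control libraries. It was 4.03-fold higher with no overlap (log2 fold change 2.01, SE 0.046, edgeR adjusted p = 2.54e-32). The alarmin gene IL1A was at 7.32 ± 0.398 CPM on average with guide 1 and 6.79 ± 0.260 CPM with guide 2, against 2.39 ± 0.167 CPM in control cells (SD, n = 3 each). It rose by 1.56 with SOX10 and had −0.69 without (difference 2.25, edgeR adjusted p = 1.59e-18). TNFAIP2 rose by 1.33 and BIRC3, an inhibitor of apoptosis, by 1.40. The chemokine gene CXCL1 was lower, at 5.51 and 3.13 CPM with guides 1 and 2, against 9.81 CPM in control cells (log2 fold change −1.24). In 12 of the 25 the effect was more positive with SOX10 and in 5 more negative, against 18.1% and 15.1% of all genes.

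Matrix, protease and adhesion genes held some of the clearest single changes without a common direction. Over all genes 28.2% rose and 26.7% fell. Of 39 collagens and other matrix genes 15 rose and 19 fell, or 18 and 18 with library totals. LUM, a small proteoglycan of collagen fibrils, was at 37.5, 36.9 and 37.5 CPM in the guide 1 libraries and 42.5, 43.3 and 44.2 CPM in the guide 2 libraries, against 5.02, 5.97 and 5.10 CPM in the control libraries, a 7.48-fold rise (log2 fold change 2.90, SE 0.063, edgeR adjusted p = 6.57e-33). COL8A1 was 4.73-fold lower and the laminin gene LAMA4 2.44-fold. Of 30 extracellular proteases and inhibitors 12 rose and 15 fell, or 13 and 13 with library totals. TIMP3, a matrix-bound inhibitor of metalloproteases, was at 558, 577 and 560.0 CPM in the guide 1 libraries and 296, 297 and 291 CPM in the guide 2 libraries, against 1828, 1806 and 1790.5 CPM in the control libraries. Guide 2 was lowest, and the fall was 4.43-fold (log2 fold change −2.15, SE 0.02, edgeR adjusted p = 7.04e-46). MMP16, a membrane-bound metalloprotease, was 4.17-fold lower, and ADAMTS6 was 4.97-fold higher. SERPINE2, a protease inhibitor of glia, was at 2904 and 2398 CPM with guides 1 and 2, against 4438 CPM in control cells. Of 30 integrins and adhesion genes 11 rose and 16 fell, with log2 changes of −1.51 for ITGB8, −2.22 for ITGA9 and −0.59 for ITGA6. In 20 of these 30 the effect was more positive with SOX10 and in 7 more negative, against 18.1% and 15.1% of all genes.

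Genes of mitosis were slightly but widely lower. Of 26 G2 and M phase genes 25 fell and none rose, with a median of −0.30, or 19 and 2 with library totals. Over all genes 26.7% fell and 28.2% rose. KIF20A, a kinesin of cytokinesis, was at 165, 173 and 164 CPM in the guide 1 libraries and 141, 142 and 136 CPM in the guide 2 libraries, against 237, 236 and 240.3 CPM in the control libraries (log2 fold change −0.64, SE 0.024, edgeR adjusted p = 4.4e-25). CDK1, the kinase that starts mitosis, was at 229 and 222 CPM with guides 1 and 2, against 319.8 CPM in control cells, and PLK1 at 169.9 and 141 CPM with guides 1 and 2, against 220.1 CPM in control cells, each 1.42-fold lower. CENPF had a change of −0.46 and the topoisomerase gene TOP2A of −0.34, or −0.32 and −0.20 with library totals. Without SOX10, 20 of the 26 had fallen and none had risen, against 29.5% and 28.6% of all genes.

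Genes of DNA replication and S phase did not fall with them. Of 28 tested, 12 rose and 5 fell with SOX10, with a median of 0.05, against 28.2% and 26.7% of all genes. With library totals 22 rose and 2 fell. Without SOX10, 3 had risen and 24 had fallen, with a median of −0.31, against 28.6% and 29.5% of all genes. In 24 of the 28 the difference passed, each time with a more positive effect with SOX10, against 18.1% of all genes. CCNE2, a cyclin of S phase entry, was at 34.5, 33.8 and 34.2 CPM in the guide 1 libraries and 31.5, 32.9 and 32.4 CPM in the guide 2 libraries, against 24.4, 25.3 and 27.0 CPM in the control libraries. It was higher in all 6 knockout libraries with SOX10 (log2 fold change 0.38, SE 0.039, edgeR adjusted p = 6.1e-11) and had −0.56 without. MCM6, a subunit of the replicative helicase, rose by 0.25 with SOX10 and had −0.31 without (difference 0.57, edgeR adjusted p = 7.3e-17). CCNE1 rose by 0.47 with SOX10 and 0.39 without. TYMS, the thymidylate synthase, fell in both settings, by 1.33-fold with SOX10 and 1.61-fold without, as did MCM3.

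**Figure D5:**
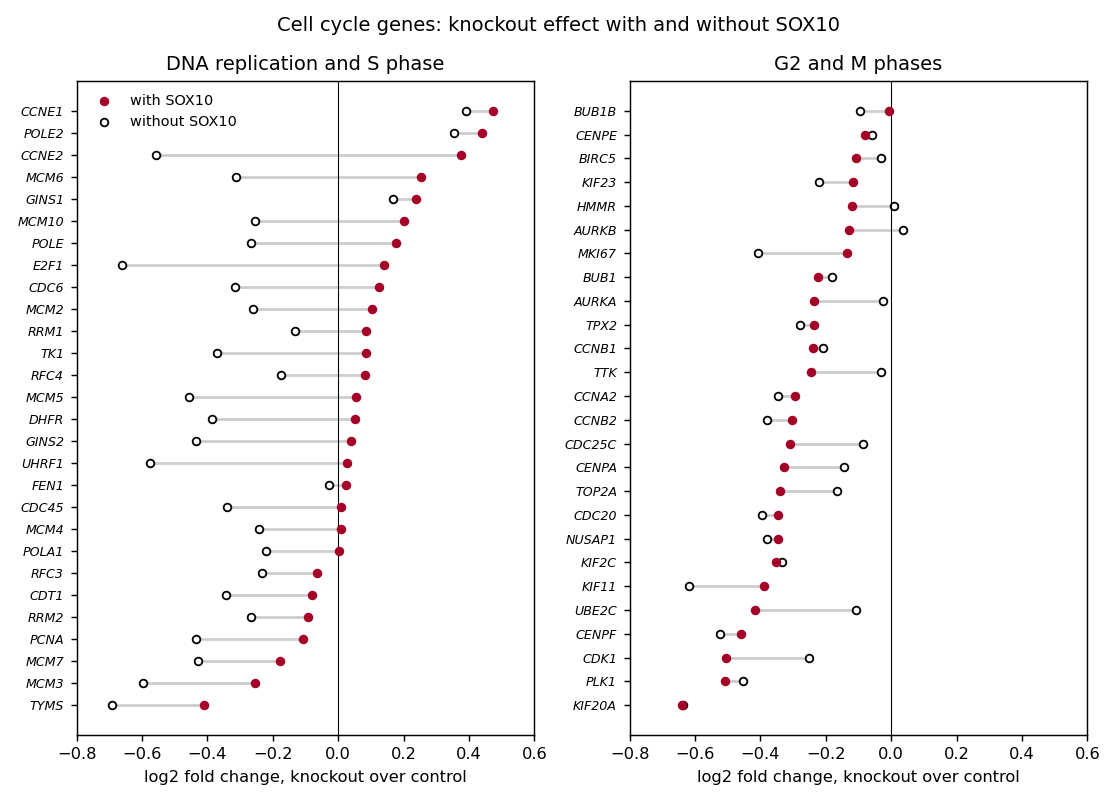
Log2 fold change of knockout over control for each tested gene of 2 lists, S phase (left) and G2 and M phases (right), with SOX10 as filled and without it as open points. In the S phase list most filled points lie right of their open points and near 0, while in the G2 and M list both lie left of 0, and with library totals 22 S phase genes are higher and 2 lower, and 2 G2 and M genes are higher and 19 lower.

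Metabolic and growth genes were mostly lower. Over all genes 26.7% fell and 28.2% rose. Of 28 hypoxia and glycolysis genes 24 fell and 2 rose, with a median of −0.50. LDHA, the lactate dehydrogenase, was at 1337, 1346 and 1376 CPM in the guide 1 libraries and 1102, 1089 and 1119 CPM in the guide 2 libraries, against 2231, 2202 and 2186 CPM in the control libraries, below control in every library (log2 fold change −0.85, SE 0.018, edgeR adjusted p = 1.66e-33). PKM, the last enzyme of glycolysis, had a change of −0.77, the hexokinase gene HK2 of −0.69, PGK1 of −0.53 and the hypoxia target BNIP3 of −0.90. In 15 of the 28 the effect was more negative with SOX10, and in 3 more positive, against 15.1% and 18.1% of all genes. Among 28 MYC targets and ribosome biogenesis genes, 23 were lower and 1 was higher, against 15 and 6 under library totals. NPM1, a nucleolar chaperone, had a change of −0.34, and ODC1, which makes polyamines, was the member that rose (0.55). Of 25 genes of cholesterol and fatty acid synthesis 12 fell and 5 rose, but 9 and 10 with library totals. The desaturase gene FADS1 rose by 0.45. Of 24 genes of the stress response of the endoplasmic reticulum and amino acids 15 fell and 4 rose, or 10 and 8 with library totals. The chaperone genes HSPA5 and HSP90B1 had −0.62 and −0.52, and PSAT1, of serine synthesis, −0.56.

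Targets of p53 had no common direction with SOX10. Of 23 tested, 6 rose and 7 fell, near the 28.2% and 26.7% of all genes, or 14 and 4 with library totals. Without SOX10 16 had risen and 1 had fallen, against 28.6% and 29.5% of all genes. In 11 the effect was more negative with SOX10 and in 2 more positive, against 15.1% and 18.1% of all genes. CDKN1A, the cyclin-dependent kinase inhibitor p21, was at 112 ± 2.71 CPM on average with guide 1 and 93.5 ± 3.26 CPM with guide 2, against 124 ± 1.94 CPM in control cells (SD, n = 3 each). Its change was −0.28 with SOX10 and 0.36 without (difference −0.63, edgeR adjusted p = 1.56e-17). The death receptor gene FAS rose by 0.36, TP53I3 by 0.89 and PMAIP1 by 0.42, and SESN2 had −0.43.

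Other subunits of SAGA moved by small steps, with KAT2B as the exception. Of 24 tested, TADA2B included, 9 rose and 7 fell, with a median of 0.07, or 15 and 4 with library totals. Over all genes 28.2% rose and 26.7% fell. KAT2B, an acetyltransferase that TADA2B helps to anchor, was at 104.5, 99.5 and 93.5 CPM in the guide 1 libraries and 69.2, 63.8 and 68.8 CPM in the guide 2 libraries, against 177, 171 and 176 CPM in the control libraries. It was 2.14-fold lower and lower with guide 2 than with guide 1 (log2 fold change −1.09, SE 0.03, edgeR adjusted p = 1.21e-29). Without SOX10 the KAT2B change was −0.15, and the difference was −0.95 (edgeR adjusted p = 3.93e-20). Its level without SOX10 was 36.4 and 32.8 CPM with guides 1 and 2, against 38.3 CPM in control cells. KAT2B was thus higher with SOX10 than without it in each group, by a smaller step in the knockout. TAF9B rose by 0.51, TAF5L by 0.27 and TADA3 by 0.26, and USP22, the deubiquitinase of the complex, had −0.23, or −0.09 with library totals. Of 7 ATAC subunits 1 rose and 3 fell, but 4 rose and 0 fell with library totals. TADA2A was the member that rose (0.24), and ZZZ3, DR1 and KAT14 had −0.11, −0.17 and −0.17, of which ZZZ3 became 0.03 and DR1 and KAT14 −0.02 with library totals, all without a call.

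Markers of other cell types were measured alongside. All 9 epithelial markers tested were higher, with a median of 2.11, against 28.2% of all genes. CDH1, KRT19 and TP63 of that list were not tested, with 11, 8 and 19 reads over the 9 libraries. EPCAM, among those tested, had only 57 reads there and KRT5 171. KRT8, a keratin of simple epithelia, was at 51.8, 52.3 and 56.6 CPM in the guide 1 libraries and 71.7, 74.2 and 70.2 CPM in the guide 2 libraries, against 9.62, 9.87 and 9.60 CPM in the control libraries (log2 fold change 2.68, SE 0.045, edgeR adjusted p = 4.15e-37). The desmosome gene DSP rose 3.33-fold and SFN, an epithelial 14-3-3 protein, 21.3-fold. The summed level of the 12 epithelial markers was 332 to 362 CPM with guide 1 and 389 to 400.4 CPM with guide 2, against 179 to 181 CPM in control cells, and KRT18 had the highest level among them in each group. Of 9 fibroblast markers 5 rose and 2 fell, against 28.2% and 26.7% of all genes, or 7 and 1 with library totals. Besides LUM, MFAP5 was at 1.94 and 3.73 CPM with guides 1 and 2, against 0.0413 CPM in control cells, and COL1A1 at 3.07 and 3.18 CPM with guides 1 and 2, against 0.384 CPM in control cells. The control cells held only 9 reads of MFAP5 and 82 of COL1A1 over 3 libraries. DCN rose by 1.15. POSTN, a matricellular protein, was with SOX10 at 1.77 and 1.36 CPM with guides 1 and 2, against 2.84 CPM in control cells (log2 fold change −0.87). Without SOX10 it was higher in the knockout, at 2.77 and 2.95 CPM, against 0.165 CPM in control cells (difference −4.97, edgeR adjusted p = 7.03e-20). The 10 fibroblast markers summed to 49.9 to 51.6 CPM with guide 1 and 57.6 to 60.9 CPM with guide 2, against 13.8 to 14.5 CPM in control cells, and LUM had the highest level among them in each group. COL1A2 and COL3A1, which define fibroblasts, were at 23 and 19 reads over the 9 libraries.

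Of 4 leukocyte markers tested 1 rose, near the 28.2% of all genes. It was the lysozyme gene LYZ, at 18.8 and 20.8 CPM with guides 1 and 2, against 5.49 CPM in control cells. The 10 leukocyte markers summed to 18.4 to 19.5 CPM with guide 1 and 20.04 to 21.8 CPM with guide 2, against 5.44 to 6.21 CPM in control cells, and TYROBP was at 0 in all 9 libraries. Of 7 endothelial markers 4 rose and 1 fell, against 28.2% and 26.7% of all genes. KDR made up most of their sum of 30.7 to 33.2 CPM with guide 1 and 36.9 to 37.4 CPM with guide 2, against 12.6 to 12.8 CPM in control cells. The endothelial cadherin gene CDH5 was under 1 CPM in every library, as was VWF in control cells. The 8 melanoma and melanocyte markers summed to 411 to 428 CPM with guide 1 and 336 to 345 CPM with guide 2, against 742 to 747 CPM in control cells. SOX10, with reads of the added copy, was highest among them, at 291 and 246 CPM with guides 1 and 2, against 452 CPM. DCT was at 22.8 and 6.59 CPM, against 156 CPM. MITF and S100B were lower too, PAX3 and MLANA moved little, and PMEL was higher. The part of other cells in the results was not tested. Of 13 mitochondrially encoded transcripts 1 rose and 1 fell, against 28.2% and 26.7% of all genes, or 9 and 0 with library totals. MT-CO2 rose by 0.44, and MT-ND3, at 438 and 375.3 CPM with guides 1 and 2, against 455 CPM in control cells, lost its call when any 1 of 8 libraries was left out. Of 12 replication-dependent histone genes 4 rose and none fell, against 28.2% and 26.7% of all genes. H1-2 rose by 0.66, while H2AC6, H2BC21 and H4C8 had knockout libraries inside the control range.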

How the data were processed

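RNA of A375 cells was sequenced from libraries of a stranded mRNA kit, per the labels. The deposited values are whole-number counts of reads per gene, not normalized, made by the authors with HISAT2, HTSeq and build hg38, per the submitters' processing notes. Neither their versions nor HTSeq's strand setting is stated there, so reads of overlapping or antisense genes cannot be told apart. Of 58721 identifiers 58676 matched GENCODE 29, and 17004 had 0 counts in all 18 libraries.

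From the counts, edgeR 4.0.16 (R 4.3.3) kept 21060 genes with its default filter and applied TMM scaling. It fitted 6 group means over 18 libraries, with 12 residual degrees of freedom, by the robust quasi-likelihood test with Benjamini-Hochberg adjustment at 0.05. The knockout effect is the mean of both guides against control with SOX10, and the difference is that effect minus the effect without SOX10. SE is the absolute log2 fold change divided by the square root of F. CPM uses TMM-scaled library sizes, and 3 counts correspond to 0.0366 to 0.0493 CPM. Replicates differed by more than sampling noise, with chi-square per degree of freedom of 4.68 to 8.5, so each library counts as 1 sample.

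Named genes are TADA2B, SOX10 and the 10 largest called changes in each direction among protein-coding genes with a mean of at least 5 CPM and no overlap between groups. Up to 5 called members of each list with the lowest p, the 6 largest differences with and without SOX10 in each direction among protein-coding genes of at least 5 CPM in any group, and the 4 largest between guides in each direction among those of at least 5 CPM in the higher guide, were added. Lineage and pigment list members were named whether called or not, as were cell type markers at or near 0. The members and lists were chosen with earlier results of these data known. Alternatives were RLE scaling, library totals, other filters, DESeq2 1.42.0, only the groups compared, a replicate block and leaving out each library. Some genes that meet these rules are not reported here. Promoters are from RefSeq.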

Additional observations from a re-analysis of the deposited data

Results flagged for a closer look

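The knockout effect differed between cells with and without SOX10 in 7005 genes, by edgeR's test of that difference. The size of the difference, on the log2 scale, was 6.05 for SLC18A1, 5.58 for MUC7, 5.38 for TRIM51, 5.12 for SV2C, 4.90 for KDR and 4.75 for SLC24A2. Apart from KDR, these 6 genes were at or near 0 counts in knockout cells without SOX10, so the values depend on the small count added to zeros. In the negative direction the difference was −4.36 for RELN, −3.33 for MMP3, −2.80 for SLC5A4, −2.62 for SHOC1, −2.57 for PCDH7 and −2.45 for GDF15.

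Guide 2 and guide 1 differed in 2539 genes with SOX10, by the same kind of test. Guide 2 over guide 1 was 1.01 for HECW2, 0.97 for ANXA3, 0.89 for ANKRD1 and 0.88 for SERPINB2. It was −2.00 for TRIM48, −1.93 for TFAP2B, −1.79 for DCT and −1.70 for HLA-DOA. The TADA2B transcript did not differ between the guides past the threshold, which does not show that the guides act alike.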

How the results depend on the processing

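The number of genes changed at least 2-fold was 2554, and 1102 when only the 14194 genes with a mean of at least 1 CPM were tested. That filter left 765 higher and 337 lower by 2-fold or more, against 1905 and 649. The other total counts of changed genes, both directions together, stayed within 1.5 times their value under RLE scaling, library totals, both other filters, DESeq2, a fit of the compared groups alone and each left-out library. Counts by direction moved further with library totals, which called 9144 genes higher and 3126 lower with SOX10, against 5946 and 5633. The genes called lower were then 2591 with guide 1 and 3173 with guide 2, against 4782 and 5573. With 1 library left out, 10562 to 11502 genes passed with SOX10, and 2473 to 2635 at least 2-fold. Guide 1 then gave 9016 to 9234, guide 2 gave 10741 to 10804, the difference with and without SOX10 6215 to 7272, and the difference between guides 1888 to 2299. Of 212 values of named genes, 201 kept their direction and call under every alternative that tested them. Some of the less abundant genes were removed by the filter at 1 CPM and were not tested there. CDH19, not called with TMM, was called higher with library totals (0.08, edgeR adjusted p = 0.0177). ZZZ3 changed sign there without a call (0.03, edgeR adjusted p = 0.218), and DR1 (−0.02), KAT14 (−0.02) and PAX3 (−0.09) lost their call. Of 60 list counts, library totals moved 18 by more than 1.5 times and RLE scaling 0. The cause was not tested.

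Same-numbered libraries shared little, as the deviations of the 9 same-numbered pairs correlated at −0.0061 to 0.0243. Whether they were prepared together is not stated and cannot be told from these values. With the replicate number as a block, 11664 genes passed with SOX10, 2543 at least 2-fold, 10020 with guide 1 and 11626 with guide 2. The block gave 7213 for the difference with and without SOX10 and 2783 between guides.

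Groups of 3 libraries, 1 cell line and 1 control guide limit these results. The 2 guides share their control libraries, so a deviation of those libraries enters both comparisons. Folds of genes near 0 counts in a group are imprecise.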
